A study of Mus musculus with 10 samples.

Results

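The Kelch-like genes examined here are the Klhl and Kbtbd genes on a mouse expression array. They were taken as every probe that is not a control and whose gene name is Klhl or Kbtbd followed by a number. This gave 86 probes for 46 genes, of 37325 genes on the array, and 39 of the 46 genes had a probe bright enough to be tested, among 20607 tested genes. Klhl32 and 5 muscle-enriched genes (Klhl30, Klhl31, Klhl38, Klhl40 and Klhl41) were set apart from the other 40. Klhl32 was selected on its difference between the genotypes in these same samples, so its values, and those of the 5 muscle-enriched genes, are given as a description with no p-value. They enter a count of calls only so that it covers every member, and nothing is read from their being counted.

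Most of these proteins join a BTB domain, which binds the scaffold protein cullin-3 (CUL3), to a Kelch propeller, which holds the substrate. The cullin in turn carries the RING protein RBX1 and the ubiquitin-loaded enzyme, and attachment of the small protein NEDD8 switches the complex on. In striated muscle several members, KLHL40 and KLHL41 among them, bind and stabilise thin-filament proteins, and human mutations in KLHL40, KLHL41 and KBTBD13 cause nemaline myopathy.

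Cardiac tissue of HIPK2 knockout mice, which carry a 56-base deletion made with CRISPR in the second exon of Hipk2 that shifts the reading frame, was compared with cardiac tissue of wild-type mice. HIPK2 is a nuclear serine/threonine kinase. All mice were male, the line is on the C57BL/6 background and was crossed to wild-type C57BL/6 animals, and no age, no chamber of the heart and no agent is given. There were 5 samples per genotype, each on its own 1-colour array; the labels number the samples and do not tie each to a mouse of its own, so a p-value here reflects only how these 10 samples scatter.

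None of the 3 Hipk2 probes shared 20 bases in a row with the deleted stretch, so they do not check the genotype labels, and the brightest of them lay between 1.30 and 1.88 in knockout samples and between 1.18 and 1.96 in wild-type samples, on the log2 scale used throughout. The 75th percentile of spot signal, to which every array was scaled, lay between 286 and 460 on knockout arrays and between 462 and 542 on wild-type arrays (exact permutation p = 0.00794, adjusted p = 0.0291 over 11 array measures, two-sided). Wild-type samples 1 and 2 lay on a slide of their own, slide 1, and the other 8 samples on slide 2. Cardiomyocyte markers were bright on every array, and the mean log2 signal of the 8 listed ones was 8.37 to 8.83 in knockout and 7.87 to 8.38 in wild type (exact permutation p = 0.0159, adjusted p = 0.0349). The mean of 5 endothelial markers was 2.04 to 2.29 in knockout and 2.46 to 2.57 in wild type, with no overlap (exact permutation p = 0.00794, adjusted p = 0.0291), and Kdr and Emcn among them fell. The mean of 9 macrophage markers was 1.43 to 1.97 in knockout and 1.94 to 2.21 in wild type (exact permutation p = 0.0159, adjusted p = 0.0349). The part of these markers in the values of the members was not tested.

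Klhl32 was read by 3 probes of 60 bases on chromosome 4, minus strand, in build mm9, and the first 30 bases of each are shown because the largest difference in the family rests on them. Capitals are not used here, since no motif is marked. The first lies at chr4:24544420-24544479 and was the brightest, the second at chr4:24576715-24576774, and the third, the dimmest, at chr4:24539857-24539916.
Klhl32 probe, brightest: catggacatcctcagtgcttccctatcgtg
Klhl32 probe, middle: aagaacaaatggacttttgtgcagtccttt
Klhl32 probe, dimmest: ggtatgtgtgtcccatctcttaaacatcat

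Klhl32, a member whose substrate is not described here, was higher in every knockout sample than in any wild-type sample. On its brightest probe the log2 signal, relative to the 75th percentile of the array, was 1.28, 0.94, 0.80, 0.75 and 1.19 in knockout samples 1 to 5, against -0.51, 0.10, -0.20, -0.43 and -0.68 in wild-type samples 1 to 5. The lowest knockout sample thus lay above the highest wild-type sample, which was sample 2. The means were 0.99 ± 0.24 in knockout samples and -0.34 ± 0.30 in wild-type samples (SD, n = 5 each), a log2 fold change of 1.33 ± 0.16 (SE; 95% interval 0.98 to 1.69), or 2.52-fold.

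The other probes of Klhl32 gave the same order of the genotypes. The middle probe read -1.36, -1.37, -1.63, -1.77 and -1.14 in knockout samples, against -2.91, -2.23, -3.02, -3.08 and -3.38 in wild-type samples, a log2 difference of 1.47. The dimmest probe read -2.44, -2.71, -3.14, -3.34 and -2.45 in knockout samples, against -4.77, -4.05, -4.36, -4.71 and -5.24 in wild-type samples, a log2 difference of 1.81. On neither probe did the genotypes overlap, but the dimmest was well above background on only 4 of the 5 knockout and 3 of the 5 wild-type arrays. With normexp, a model-based background correction, the differences of the brightest, middle and dimmest probe were 1.17, 0.99 and 0.86 on the log2 scale, so the order of the probes by size of the difference turned round while the sign stayed.

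**Figure D1:**
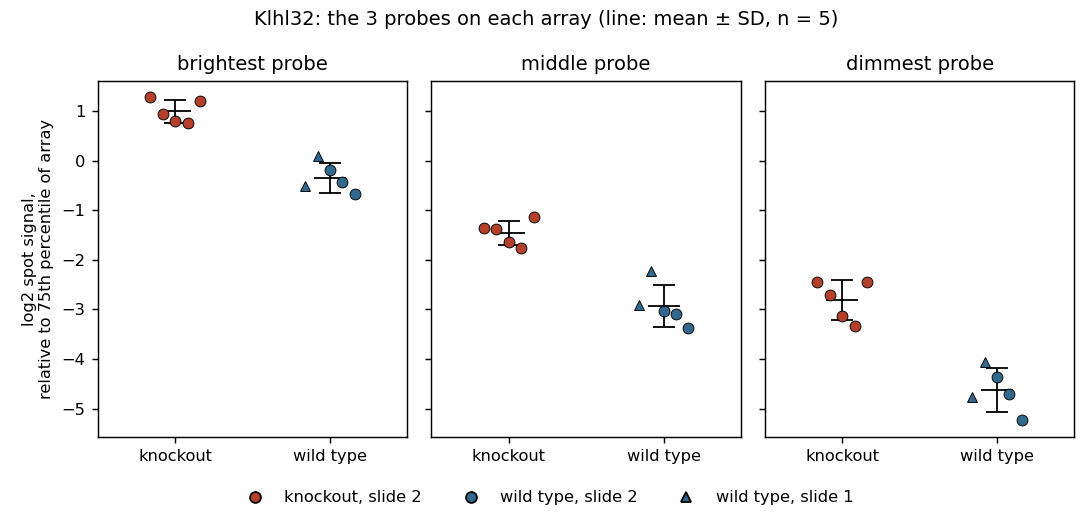
Log2 spot signal of the 3 Klhl32 probes, relative to the 75th percentile of each array (y axis), in knockout samples (left in each panel) and wild-type samples (right); circles are slide 2, triangles slide 1, and lines give the mean ± SD of 5 samples. In each panel all 5 knockout points sit above all 5 wild-type points, and the gap in means is 1.33, 1.47 and 1.81 from the brightest to the dimmest probe; heights are not comparable between panels, since each probe has its own brightness.

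The Klhl32 difference was as large within slide 2. Slide 1 held 2 wild-type arrays with a mean of -0.20, slide 2 held 3 with a mean of -0.43, and knockout arrays, all on slide 2, exceeded the slide 2 wild-type mean by 1.43 on the log2 scale. Over the 19 alternative settings the log2 fold change of Klhl32 ran between 1.17 and 1.54. The 6 measured genes whose probe lay within 1 Mb of it, among them Mms22l, Ndufaf4 and Ufl1, had log2 fold changes between -0.26 and 0.18, and none passed the test.

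The muscle-enriched members stood closer together. Their log2 fold changes ran between -0.073 for Klhl31 and 0.52 for Klhl38 with a median of 0.13, against a median of -0.019 over the 33 other measured members without Klhl32 and 0.026 over all tested genes. No gene of the 5 separated the genotypes in every sample. These signals come from bulk tissue, in which fewer cells of a type and less RNA per cell cannot be told apart.

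KLHL40 stabilises nebulin and leiomodin-3 at the thin filament. Klhl40, at chr9:121689800-121689859 in mm9, read 0.95, 0.93, 1.22, 1.34 and 0.90 in knockout samples, against 0.67, 0.85, 1.18, 1.08 and 1.20 in wild-type samples. The genotypes overlapped almost completely, and the lowest values were the wild-type samples of slide 1. The log2 fold change was 0.07 ± 0.13 (SE; 95% interval -0.22 to 0.36) and took the other sign, at -0.088, when the slide was a block. Its second probe gave 0.047.

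KLHL41 acts in the same way on nebulin and also controls the turnover of the sarcomere protein NRAP. Klhl41, on chromosome 2, read 1.13, 1.08, 0.64, 1.11 and 0.99 in knockout samples, against 0.86, 0.78, 0.55, 0.81 and 0.76 in wild-type samples. Knockout samples other than sample 3 lay above every wild-type sample. Its log2 fold change was 0.24 ± 0.11 (SE; 95% interval -0.004 to 0.48).

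Klhl38, a member for which no substrate is given here, had the largest difference of the 5. It read 1.10, 0.96, 0.19, 1.03 and 1.00 in knockout samples, against 0.87, 0.71, 0.086, 0.025 and 0.0011 in wild-type samples, on a probe at chr15:58146202-58146261. In wild type the signal split by slide: both slide 1 samples were high and the 3 slide 2 samples sat near 0, while knockout samples other than sample 3 were higher than all of them. The log2 fold change was 0.52 ± 0.23 over all 10 samples (SE, with a 95% interval of 0.019 to 1.01). That interval is not adjusted for the number of genes tested, and Klhl38 was not called in the fit as reported. Among the slide 2 samples alone the log2 fold change was 0.82, and all 5 knockout samples there lay above the 3 wild-type samples.

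KLHL31 acts on filamin C in mouse skeletal muscle. Klhl31, at chr9:77503483-77503542, read 3.80, 3.86, 3.86, 4.10 and 3.79 in knockout samples, against 3.92, 3.99, 4.05, 3.92 and 3.88 in wild-type samples. Knockout samples other than sample 4 lay below every wild-type sample, and sample 4 lay above them all. The log2 fold change was -0.073 ± 0.083 (SE; 95% interval -0.26 to 0.11), and the second probe gave -0.098.

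Klhl30, for which no substrate is given here either, read 3.59, 3.60, 3.37, 3.63 and 3.61 in knockout samples, against 3.37, 3.36, 3.66, 3.45 and 3.32 in wild-type samples. The genotypes overlapped through knockout sample 3, which was low, and wild-type sample 3, which was high. The log2 fold change was 0.13 ± 0.091 (SE; 95% interval -0.072 to 0.33), and the second probe gave 0.056.

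**Figure D2:**
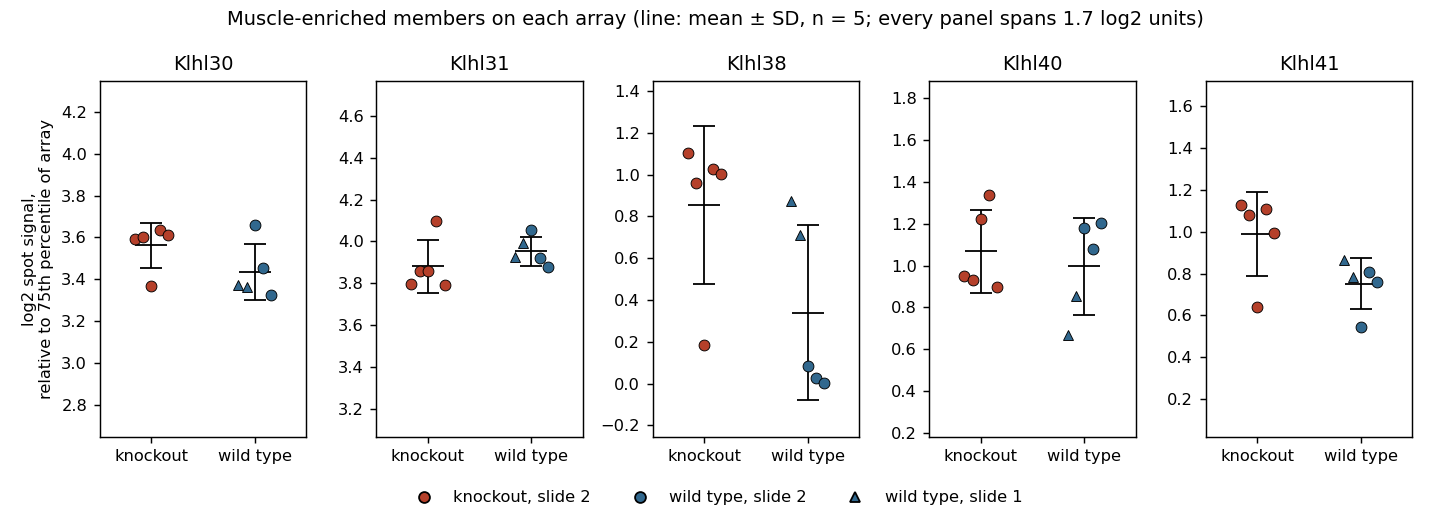
Log2 spot signal of the 5 muscle-enriched members, relative to the 75th percentile of each array (y axis, every panel spanning the same range), in knockout samples (left) and wild-type samples (right); circles are slide 2, triangles slide 1, and lines give the mean ± SD of 5 samples. The genotypes overlap in each panel, knockout sample 3 is the low knockout point for Klhl30, Klhl38 and Klhl41, and the wild-type points of Klhl38 split by slide.

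The mean signal of fast skeletal muscle markers also differed between the genotypes. Of the 13 listed markers 10 were measured, and Myh1, Myh2 and Actn3 had no probe bright enough to be tested. The mean log2 signal of the 10 was -0.74 to -0.22 in knockout and -1.12 to -0.86 in wild type, with no overlap (exact permutation p = 0.00794, adjusted p = 0.0291 over 11 array measures, two-sided). The sample with the highest marker signal was knockout sample 3, in which Klhl30, Klhl38 and Klhl41 had their lowest knockout values. None of the 10 markers passed the test by itself. Without adjustment 1 of them (10%) had a limma p under 0.05, where 27.2% of all tested genes did. Of the 10, 9 had log2 fold changes above 0 and 1 below. The largest were those of Pvalb, 1.66 (SD 1.96 in knockout samples), and Casq1, 0.73. The part of these markers in the values of the muscle-enriched members was not tested.

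Promoter windows of 250 bases before the gene start were available for 38 of the 46 genes (RefSeq, build GRCm38, gene strand), and those of Klhl32 and of the muscle-enriched members in that table are shown to set the first beside the others. Klhl41 lies at chr2:69669870-69670119 on the plus strand, Klhl40 at chr9:121777357-121777606 on the plus strand, Klhl31 at chr9:77636482-77636731 on the plus strand and Klhl32 at chr4:24851125-24851374 on the minus strand. Capitals mark matches on either strand to the E-boxes CAGCTG and CACGTG, the MEF2 site and the SRF CArG box, with no overlap between matches.
Klhl32 promoter: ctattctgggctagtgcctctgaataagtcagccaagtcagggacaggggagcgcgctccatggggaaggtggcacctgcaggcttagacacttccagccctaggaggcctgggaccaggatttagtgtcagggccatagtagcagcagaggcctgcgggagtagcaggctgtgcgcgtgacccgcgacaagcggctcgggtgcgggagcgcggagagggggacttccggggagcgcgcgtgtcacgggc
Klhl31 promoter: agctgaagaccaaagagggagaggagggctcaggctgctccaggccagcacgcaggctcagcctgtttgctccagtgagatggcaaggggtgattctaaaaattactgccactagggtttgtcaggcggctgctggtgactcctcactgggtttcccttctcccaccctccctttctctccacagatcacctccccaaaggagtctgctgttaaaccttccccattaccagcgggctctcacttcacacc
Klhl40 promoter: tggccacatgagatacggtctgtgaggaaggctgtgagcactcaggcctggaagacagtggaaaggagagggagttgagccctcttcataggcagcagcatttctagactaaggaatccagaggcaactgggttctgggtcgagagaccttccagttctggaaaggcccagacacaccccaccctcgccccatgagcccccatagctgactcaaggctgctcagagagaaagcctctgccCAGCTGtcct
Klhl41 promoter: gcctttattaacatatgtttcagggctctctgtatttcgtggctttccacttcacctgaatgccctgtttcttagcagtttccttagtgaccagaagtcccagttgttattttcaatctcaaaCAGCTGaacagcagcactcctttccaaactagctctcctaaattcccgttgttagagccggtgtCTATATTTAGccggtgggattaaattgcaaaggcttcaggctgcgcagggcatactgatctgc

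Klhl41 held a CAGCTG that began 127 bases before the start and a MEF2 match that began 63 bases before it, and Klhl40 held a CAGCTG that began 10 bases before the start. Klhl32 and Klhl31 held none of the 4 motifs in this window. Over all 32851 promoter windows of the table, 13.0% held CAGCTG, 6.02% CACGTG, 0.508% the MEF2 site and 1.47% the CArG box. The Klhl32 window was the richest of the 4 in G and C, at 65.2%, against 45.2% for Klhl41 and a median of 52.4% over all windows. A match is a string of letters and not a site of binding.

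Across the 39 measured members, 3 rose at an adjusted p under 0.05 and none fell, where 1.97% of all tested genes rose and 2.97% fell (limma, Benjamini-Hochberg over 20607 genes). The 3 were Klhl32, which the selection had used, Klhl10 and Klhl23. Without adjustment 7 of the 39 members (17.9%) had p under 0.05, against 5602 of the 20607 tested genes (27.2%). Knockout values lay above every wild-type value for 3 members, Klhl32, Klhl23 and Klhl22, where 4.54% of all tested genes did so, and below every wild-type value for 0 members, where 4.44% did so. The median log2 fold change of the members was -0.0073, against 0.026 over all tested genes, and 29 of the 39 differed by less than 0.25 on the log2 scale.

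**Figure D3:**
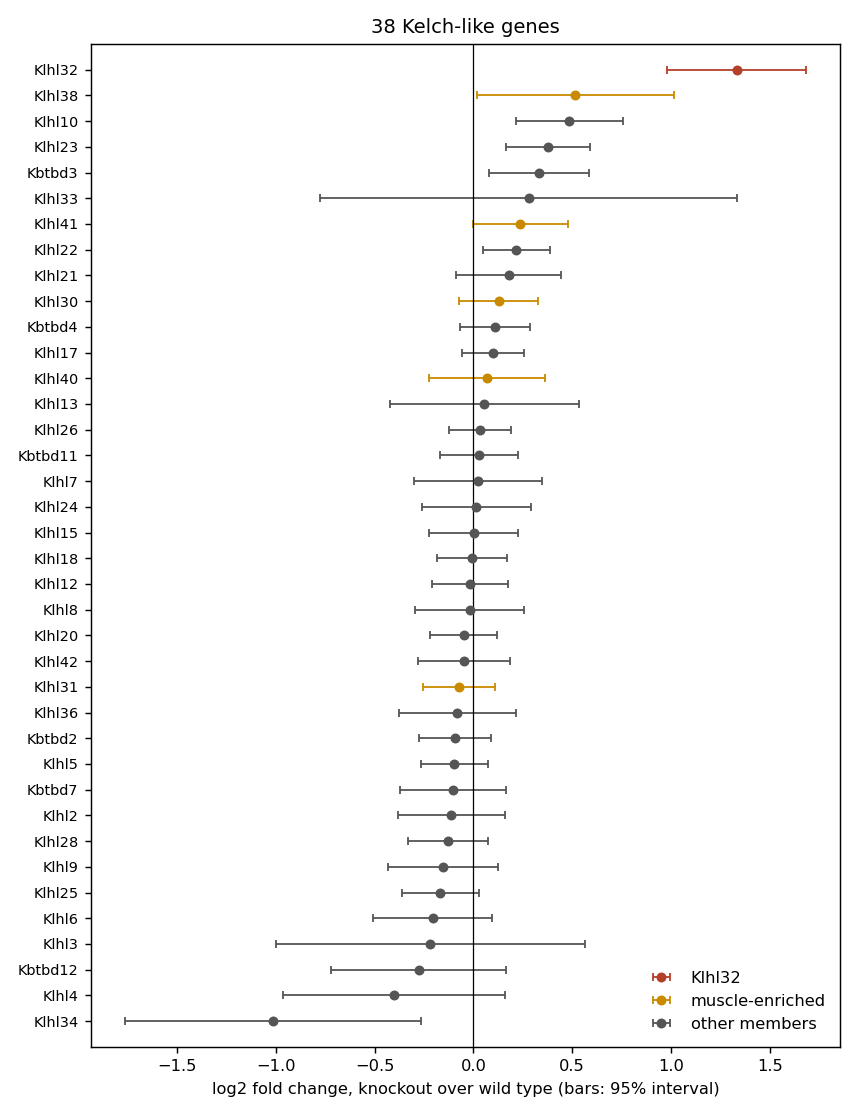
Log2 fold change, knockout over wild type, of 38 measured members (x axis; Kbtbd8, dim on all 5 knockout arrays, is not drawn) with 95% intervals from the limma fit, sorted by value; Klhl32, the 5 muscle-enriched members and the others have their own colours. Klhl32 stands at 1.33 and Klhl34 at -1.01, and 31 of the 38 intervals include 0. Klhl3, Klhl4 and Klhl33 are drawn although each was well above background on only 2 of the 5 knockout arrays.

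KLHL10 is a testis protein that mouse spermatids need for maturation. Klhl10, at chr11:100318241-100318300 in mm9, read -2.04, -2.34, -2.66, -2.28 and -2.37 in knockout samples, against -2.80, -2.90, -2.81, -2.58 and -3.03 in wild-type samples. Knockout sample 3 lay below wild-type sample 4, and the other knockout samples lay above every wild-type sample. The gene rose by a log2 fold change of 0.49 ± 0.12 (SE; limma adjusted p = 0.0491), and its second kept probe, well above background on 3 of the 5 knockout and 4 of the 5 wild-type arrays, gave 0.60, or 0.47 with normexp. The 22 member probes left out as dim had a median difference of 0.60 as well.

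Klhl23, for which no substrate is given here, lies on chromosome 2 like Klhl41. It read 0.37, 0.44, 0.06, 0.16 and 0.32 in knockout samples, against -0.016, -0.022, -0.29, -0.11 and -0.11 in wild-type samples. All 5 knockout samples lay above all wild-type samples, by the narrowest margin in sample 3. The gene rose by 0.38 ± 0.096 on the log2 scale (SE; limma adjusted p = 0.04999). Both calls sat at the threshold: that of Klhl10 held in 3 and that of Klhl23 in 5 of 19 alternative settings, with log2 fold changes of 0.41 to 0.57 and 0.33 to 0.44. Leaving out any sample other than knockout sample 3 ended both calls.

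KLHL22 removes the kinase PLK1 from chromosomes in mitosis and targets DEPDC5, a brake on mTORC1. Klhl22 read 2.91, 2.76, 2.65, 2.82 and 2.89 in knockout samples, against 2.58, 2.53, 2.65, 2.62 and 2.56 in wild-type samples. Each knockout sample lay above every wild-type sample, although knockout sample 3 and wild-type sample 3 nearly met. Its log2 fold change was 0.22 ± 0.076 (SE; limma adjusted p = 0.106). Kbtbd3 gave 0.33 ± 0.11 (limma adjusted p = 0.103).

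Klhl34, on the X chromosome, had the largest negative value. It read -0.51, -1.60, -0.18, -0.86 and -1.51 in knockout samples, against -0.97, 0.15, 0.38, 0.26 and 0.58 in wild-type samples. Wild-type sample 1 lay among the knockout samples, and the other wild-type samples lay above all of them. The log2 fold change was -1.01 ± 0.34 (SE; limma adjusted p = 0.097). Without wild-type sample 1 it was -1.28 ± 0.28 and passed the test (limma adjusted p = 0.0411), the one alternative of 19 in which it did. The mean log2 signal of the 4 atrial markers Myl7, Myl4, Sln and Nppa ran from -0.43 to 2.80 in knockout and was -0.93 in wild-type sample 1 and 3.11 to 5.07 in the other wild-type samples (exact permutation p = 0.135 between the genotypes). Nppa among them had a log2 fold change of 0.033, against -3.13, -1.98 and -3.00 for Myl7, Myl4 and Sln. None of the 4 passed the test by itself. With the mean of Myl7, Myl4 and Sln, without Nppa, as a covariate the log2 fold change of Klhl34 was -0.64 (limma adjusted p = 0.323). That covariate lowered the calls over all genes from 1017 to 57. The part of the atrial markers in the Klhl34 values was not tested.

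Kbtbd12 was the member with the most kept probes, 5, and with the processed signal all of them were lower in knockout. With normexp the probe at chr6:88568103-88568162 took the other sign, at 0.062. The brightest gave a log2 fold change of -0.28 ± 0.20 (SE; limma adjusted p = 0.394), with knockout samples at 1.00, 0.35, 0.77, 1.04 and 0.39 and wild-type samples at 0.42, 0.82, 1.16, 1.37 and 1.17. A dimmer probe at chr6:88568822-88568881 read -2.37, -3.11, -2.91, -2.93 and -3.10 in knockout samples, against -2.14, -2.08, -2.34, -1.97 and -2.34 in wild-type samples. On that probe the genotypes did not overlap, and it fell by 0.71 ± 0.15 on the log2 scale (SE; limma adjusted p = 0.028 in a fit over 30692 probes, of which 1364 passed); with normexp the difference was -0.21.

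In 17 members several probes were kept, and in 13 of them all probes had the same sign. The exceptions were Kbtbd2, Kbtbd4, Klhl36 and Klhl7. These signs are those of the processed signal. With normexp the probes of Kbtbd2 and Klhl7 still differed in sign, while those of Kbtbd4 and Klhl36 were all positive. The probes of Klhl12, Klhl24, Klhl25 and Kbtbd12 differed in sign with normexp, and those of Klhl4 turned from negative to positive. Dim probes of Klhl12, Klhl25 and Klhl4 were kept through the wild-type arrays alone, so their shared sign shows little. KBTBD2 targets the regulatory subunit of a phosphoinositide kinase for degradation, and the 4 kept probes of Kbtbd2 ran from -0.12 to 0.49 on the log2 scale. Both positive values rested on knockout sample 3, which read -0.49 on one probe, against -3.91 to -3.46 in the other knockout samples, and -1.72 on the other, against -2.92 to -2.36. Without that sample, an alternative chosen after seeing the data, all 4 probes were negative, between -0.15 and -0.064. The brightest of them gave -0.092 ± 0.083 (limma adjusted p = 0.499).

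Members with known roles in mitosis, vesicle traffic and signalling did not pass the test. KLHL9 and KLHL13 form a ligase with CUL3 that acts on the mitotic kinase Aurora B. Klhl9 had a log2 fold change of -0.15 ± 0.13 (SE; limma adjusted p = 0.457). Klhl13, on the X chromosome, had 0.056 ± 0.22 (limma adjusted p = 0.892). KLHL21 acts on Aurora B at cytokinesis, and Klhl21 had 0.18 ± 0.12 (limma adjusted p = 0.361). KLHL12 ubiquitinates SEC31 for large transport vesicles, and Klhl12 gave -0.016 ± 0.087. KLHL20 targets the kinase DAPK1 and PML, and Klhl20 gave -0.048 ± 0.077. KLHL24, whose stabilising mutations in humans cause skin fragility and cardiomyopathy, is encoded by Klhl24, at 0.016 ± 0.12 with 95% limits of -0.26 and 0.29. KLHL25 acts on a repressor of translation initiation, and Klhl25 gave -0.17 ± 0.089 (limma adjusted p = 0.246). KLHL3 and KLHL2 target WNK kinases. Klhl3 was well above background on only 2 of the 5 knockout arrays and gave -0.22 ± 0.35, or 0.20 with normexp. Klhl2 gave -0.11 ± 0.12.

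Spot brightness depends on the probe, so levels of different members cannot be ranked. The largest mean signals were those of Klhl31, Klhl21 and Klhl30, and the smallest measured ones those of Kbtbd8, Klhl33 and Klhl4. KBTBD8 acts in neural crest formation; Kbtbd8 was well above background on 0 of the 5 knockout arrays and on 4 of the 5 wild-type arrays, and no fold is given for it here. Klhl33 and Klhl4 were well above background on 2 of the 5 knockout arrays each, and on 4 and 5 wild-type arrays.

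Another 7 members were not measured: Kbtbd13, Kbtbd6, Klhl1, Klhl11, Klhl14, Klhl29 and Klhl35. Klhl29 came closest, well above background on at most 1 knockout and 3 wild-type arrays. Kbtbd13, whose human counterpart is a nemaline myopathy gene, was well above background on no array. Of all member probes 22 were left out as dim, and their log2 differences did not scatter about 0: 15 were above 0, with a median of 0.60 and a range of -0.58 to 1.13. With normexp all 22 were above 0, with a median of 0.33. Over the whole array 18899 probes were well above background nowhere, and their median log2 difference was 0.93, so a small rise on a dim member probe was read with that shift beside it. These 18899 values ran from -0.92 to 2.41, and the 1.81 of the dimmest Klhl32 probe lay within that range.

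**Figure D4:**
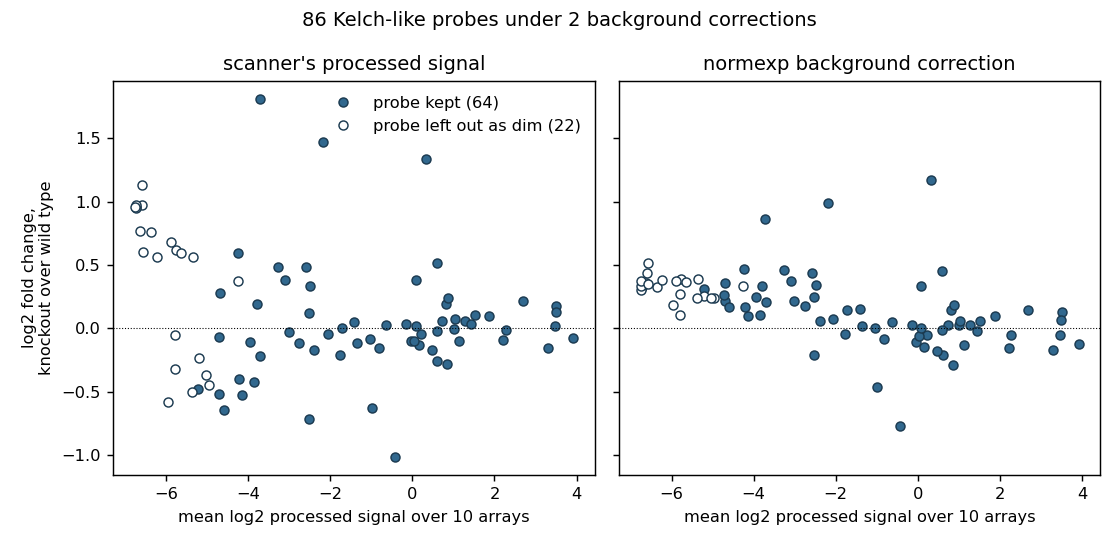
Log2 fold change, knockout over wild type (y axis), of the 86 member probes against their mean log2 processed signal (x axis), with the scanner's processed signal (left panel) and with normexp (right panel); filled points were kept and open points left out as dim. Open points run from -0.58 to 1.13 on the left and from 0.11 to 0.51 on the right, and the 3 Klhl32 probes are the highest filled points in both panels.

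Within wild type the samples of the 2 slides often did not overlap, in members and in all tested genes alike. In 12 of 39 members both slide 1 samples lay above the 3 slide 2 samples, and in 8 both lay below them, which is 51.3% in all; the same held for 47.3% of all tested genes. Examples were Klhl13, with means of 1.61 on slide 1 and 1.00 on slide 2, and Kbtbd12, with 0.62 on slide 1 and 1.23 on slide 2. Slide 1 held no knockout sample and only wild-type samples 1 and 2, so slide cannot be told apart from those samples.

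The machinery that the members plug into was read from lists of cullin-RING and CUL3 genes. Of 62 cullin-RING, COP9 signalosome and other BTB adaptor genes, all measured, 1 rose and 1 fell (limma, adjusted p under 0.05). Of all tested genes 1.97% rose and 2.97% fell. The median log2 fold change of the 62 was 0.048. None of the 23 cullin-RING core and neddylation genes passed, with 5 (21.7%) under an unadjusted p of 0.05, where 27.2% of all tested genes were, and the smallest p belonged to Cul1, at 0.20 ± 0.074, and to Cand2, an exchange factor of cullins expressed in muscle, at 0.22 ± 0.084 (limma adjusted p = 0.115 and 0.126). Cul3 itself averaged 1.20 ± 0.10 in knockout samples and 1.36 ± 0.27 in wild-type samples (SD, n = 5 each), a log2 fold change of -0.16 ± 0.13 (SE; limma adjusted p = 0.451). Rbx1 gave 0.0085 ± 0.087.

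The COP9 signalosome takes NEDD8 off cullins. None of its 11 genes passed. Without adjustment 1 (9.09%) had a limma p under 0.05, where 27.2% of all tested genes did. Of the 11, 10 had values above 0, with a median of 0.12, where 54.1% of all tested genes had values above 0. Cops6 gave 0.25 ± 0.10 and Senp8, a NEDD8 protease listed with them, gave -0.30 ± 0.14 (limma adjusted p = 0.137 and 0.197).

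Among 28 other BTB adaptors of CUL3, Rhobtb3 rose and Kctd11, an adaptor known to act on a histone deacetylase in Hedgehog signalling, fell. Without adjustment 8 of the 28 (28.6%) had a limma p under 0.05, where 27.2% of all tested genes did. Rhobtb3 read 0.05, 0.0028, -0.024, -0.019 and -0.15 in knockout samples, against -0.37, -0.52, -0.42, -0.38 and -0.54 in wild-type samples, a log2 fold change of 0.42 ± 0.075 (SE; limma adjusted p = 0.017). Kctd11 read -0.61, -0.36, -0.42, -0.38 and -0.13 in knockout samples, against -0.11, 0.55, 0.37, 0.59 and 0.47 in wild-type samples, a log2 fold change of -0.76 ± 0.14 (SE; limma adjusted p = 0.0209). The genotypes did not overlap on either probe. Other kept probes of the same genes differed: those of Rhobtb3 gave 0.12 and -0.12, and that of Kctd11 gave 0.34. That Kctd11 probe was well above background on only 2 of the 5 knockout and 4 of the 5 wild-type arrays. With the mean of all kept probes neither gene passed (limma adjusted p = 0.328 and 0.288). The calls of Rhobtb3 and Kctd11 held in 13 and 14 of 19 alternative settings. Keap1, the adaptor for the antioxidant factor NRF2, gave 0.11 ± 0.11 (limma adjusted p = 0.561).

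Of 26 listed substrates and partners of the members 25 were measured, Grik2 having no probe bright enough to be tested. These are RNA signals, and the amount or turnover of the proteins was not measured. Without adjustment 8 of the 25 (32%) had a limma p under 0.05, where 27.2% of all tested genes did. With adjustment 1 gene rose, where 1.97% of all tested genes did. This was Dapk1, the death-associated kinase that KLHL20 targets, which averaged 1.16 ± 0.088 in knockout samples and 0.80 ± 0.094 in wild-type samples (SD, n = 5 each), a log2 fold change of 0.35 ± 0.079 (SE; limma adjusted p = 0.0357) with no overlap of the samples; the call held in 5 of 19 alternative settings. The partners of the muscle-enriched members did not pass. Neb, nebulin, gave -0.75 ± 0.37, Lmod3 0.19 ± 0.098, Nrap 0.017 ± 0.17 and Flnc, filamin C, -0.25 ± 0.19 on the log2 scale (limma adjusted p = 0.221, 0.243, 0.961 and 0.418).

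**Figure D5:**
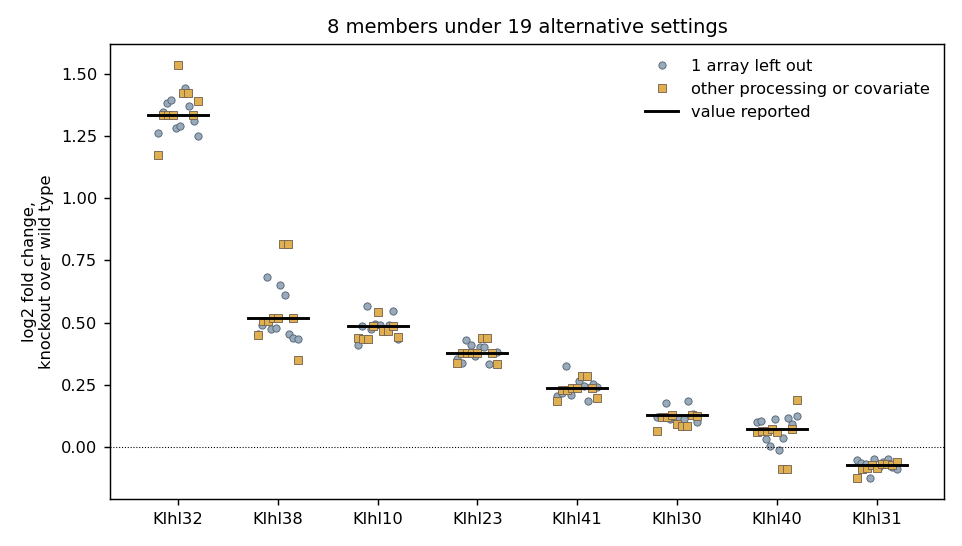
Log2 fold change, knockout over wild type (y axis), of 8 members (x axis) as reported (black lines), with each array left out (circles) and under other processing or covariates (squares). Klhl32 stays between 1.17 and 1.54, Klhl38 reaches 0.82 once slide is taken into account, and Klhl40 falls on both sides of 0.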

How the data were processed

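The authors deposited the spot intensity of 10 single-colour arrays, read out with Agilent Feature Extraction (10.7.1.1 in the submitters' processing notes). Its processed intensity is background-subtracted and not scaled between arrays, per the file headers. The authors also deposited a table of log2 values, used as an alternative. Here log2 of the processed signal minus that of the array's 75th percentile was taken. Probes were kept where at least 4 of the 5 arrays of 1 genotype had them well above background, a gene was its brightest kept probe, and knockout was compared with wild type in limma 3.58.1 (R 4.3.3), with Benjamini-Hochberg adjustment and a threshold of 0.05. Array measures were compared by exact permutation over 252 arrangements. Alternatives were normexp (offset 50), quantile normalization, the authors' table, no filter, the mean of kept probes, slide and replicate number as blocks, slide 2 alone, atrial signal as a covariate, and each array left out; Kbtbd2 probes were also read without knockout sample 3, chosen after seeing the data.

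The members and lists were chosen with earlier results of these data known. Named were all 46 members; Klhl32, the muscle-enriched members and members past the threshold by array; the 3 brightest and 3 dimmest; members whose genotypes did not overlap; and, per pathway list, up to 4 genes past the threshold or else the 2 with the smallest p, with Cul3, Rbx1, Keap1, Neb, Lmod3, Nrap and Flnc. Klhl34, Kbtbd3, Kbtbd12, other members named by role and the Klhl32 neighbours were chosen after their values were seen. Gene names came from the array files and a RefSeq table, and probe positions are mm9. The number of arrays limits the precision.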

Additional observations from a re-analysis of the deposited data

Results flagged for a closer look

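In 4 of the 16 groups of 5 samples examined for a sample far from the others (8 members, 2 genotypes), 1 knockout sample stood apart by Dixon's test at the 95% level, which flags about 1 group in 20 by chance. Knockout sample 3 was low for 3 muscle-enriched members: 3.37 for Klhl30 against 3.59 to 3.63 in the other knockout samples, 0.19 for Klhl38 against 0.96 to 1.10, and 0.64 for Klhl41 against 0.99 to 1.13. Knockout sample 4 was high for Klhl31, at 4.10 against 3.79 to 3.86. Knockout sample 3 also had the lowest 75th percentile of signal, 286, and the lowest share of spots well above background, 45.8%; their part in these values was not tested. Without knockout sample 3 the count of members past the threshold was 3.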

How the results depend on the processing

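Over 19 alternatives the 39 members gave 1 to 4 calls against 3 as reported, Klhl32, which the selection had used, being counted with them. Members called were 1 without a filter on dim probes, within slide 2, with a replicate block and with the atrial covariate, and 1 to 3 with 1 array left out. Without wild-type sample 1 the 2 called were Klhl32, which rose, and Klhl34, which fell. Normexp added Kbtbd3. With slide as a block Kbtbd3, Klhl38 and Klhl32 passed, while Klhl10 and Klhl23 did not. Klhl40 changed sign, to -0.088 with slide as a block and within slide 2 and to -0.012 without wild-type sample 1; with 1 array left out it ran from -0.012 to 0.12. Cullin-RING and other adaptor genes called were 2 as reported, 0 without a filter, with the mean of kept probes and with the atrial covariate, 1 within slide 2 and with a replicate block, and 0 to 2 with 1 array left out; without wild-type sample 4 there was 1 and without wild-type sample 5 there were 0. Unadjusted p under 0.05 was met by 8 of these genes without a filter, 14 with the mean of kept probes, 5 with the atrial covariate and 11 without wild-type sample 5. Over all genes 1017 were called (405 rose, 612 fell), against 3111 with normexp (2233 rose, 878 fell), 173 without a filter, 458 within slide 2, 164 with a replicate block, 57 with the atrial covariate and 282 to 940 with 1 array left out; without a filter all genes had a median of 0.24 on the log2 scale. The cause of these changes was not tested. The labels do not say whether replicate numbers pair the samples. Deviations of same-numbered samples correlated at -0.11 to 0.05, which cannot decide whether they were paired. The replicate block ended the calls of Klhl10 and Klhl23. The dimmest members are limited by signal over background.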
